A study of Bos taurus with 27 samples.

Results

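Imprinted genes are transcribed mainly from the allele inherited from the mother or mainly from the allele inherited from the father. The expression of 36 of them was examined in bovine blastocysts. They were chosen by symbol from a list of genes known to be imprinted in mammals, and not by level, although earlier results of these data were known. Of the 36 genes listed, 35 were in the count table of 32637 genes, and KCNQ1OT1, a long noncoding RNA, was not used here because the table had no gene of that symbol. Levels are given as CPM, in which the counts of a pool are scaled to sum to 1e6 over its genes. A gene was retained when it reached 1 CPM in 12 pools, and 18 of the 35 imprinted genes (51.4%) were retained. For all genes in the table, 37.7% were retained.

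The data came from 27 pools of bovine blastocysts, each holding the RNA of 2 blastocysts scored as stage 7 (expanding or expanded) and as quality 1 (the best grade). All embryos were produced in vitro with semen of the same bull from oocytes of abattoir ovaries, which were matured in medium with fluid taken from preovulatory follicles of either greater or lesser maturity. The labels used here do not give the treatment or the fertilization replicate of a pool, so the treatments were not compared and values are given over all 27 pools, named by number. Because each pool mixed 2 embryos and the counts do not separate alleles, neither the expression of individual embryos nor the parental origin of any transcript was measured.

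Imprints are methylation marks placed at control regions in the egg or the sperm. The marks survive the wave of demethylation that follows fertilization and then silence 1 allele of the genes nearby. Imprinted genes lie in clusters that often pair protein-coding genes with a long noncoding RNA, and many are best known for regulating growth of the placenta and fetus. Paternally expressed members such as IGF2 and PEG10 are known to promote growth, and maternally expressed members such as CDKN1C, PHLDA2 and IGF2R to restrain it. The parental allele named for each gene below is background, mostly from mouse and human, and is not established in cattle for every gene.

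The total count of a pool was between 10517606 and 44253564, with a median of 22293594, so that 1 CPM stood for 10.5 to 44.3 counts and 3 counts for 0.0678 to 0.285 CPM. Reads came from the 3' end of transcripts, so CPM was not divided by transcript length. Levels of different genes are compared on this scale, on which each transcript gives reads from its end only. Trophectoderm markers were at 1 CPM or more in all pools (9 of 9), as were 5 of the 6 epiblast markers in the table and 5 of 8 hypoblast markers, while the hypoblast genes SOX17 and FOXA2 never reached 1 CPM. Markers of cells outside the embryo were also found, with summed levels of 14.4 to 100.6 CPM over 9 leukocyte genes. Over 9 cumulus and granulosa genes the sum was 23.8 to 79.7 CPM. Of these genes 7 and 5 were retained, beside 37.7% of all genes in the table. The highest medians were 13.2 CPM for CD52, a leukocyte gene, and 14.9 CPM for CYP11A1, a cumulus and granulosa gene. The part of these markers in the values below was not tested. Pool 31 stood apart, with the highest level of 9.20% and the lowest level of 17.9% of the 12310 retained genes. Pool 9 had the highest level of 7.37% and the lowest of 11.6%. An equal spread over pools would give 3.70% for each.

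All 35 imprinted genes together held 0.0449% of the counts, and their summed level was 383 CPM in pool 9, 450 CPM at the median and 493 CPM in pool 5. A few genes carried most of this sum. GNAS held 25.2% of the imprinted counts, UBE3A 22.5%, NDN 12.5%, SNRPN 8.71% and IMPACT 7.48%, which came to 76.4% in all. The 17 genes that were not retained held 2383 counts over all pools, against 279088 for the 18 that were. Of the 16 genes known for expression from the maternal allele 9 were retained, as were 7 of the 17 known for expression from the paternal allele. Both genes that use either allele depending on promoter or tissue, GNAS and GRB10, were also retained. UBE3A was counted among the maternal genes, although its maternal expression is known from neurons. Among the retained imprinted genes, 11 of 18 (61.1%) reached 1 CPM in all 27 pools, against 72.6% of all retained genes. The retained gene nearest to the limit was ASCL2, which reached 1 CPM in 19 pools. The nearest below it was PON3, which reached 1 CPM in 6.

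**Figure D1:**
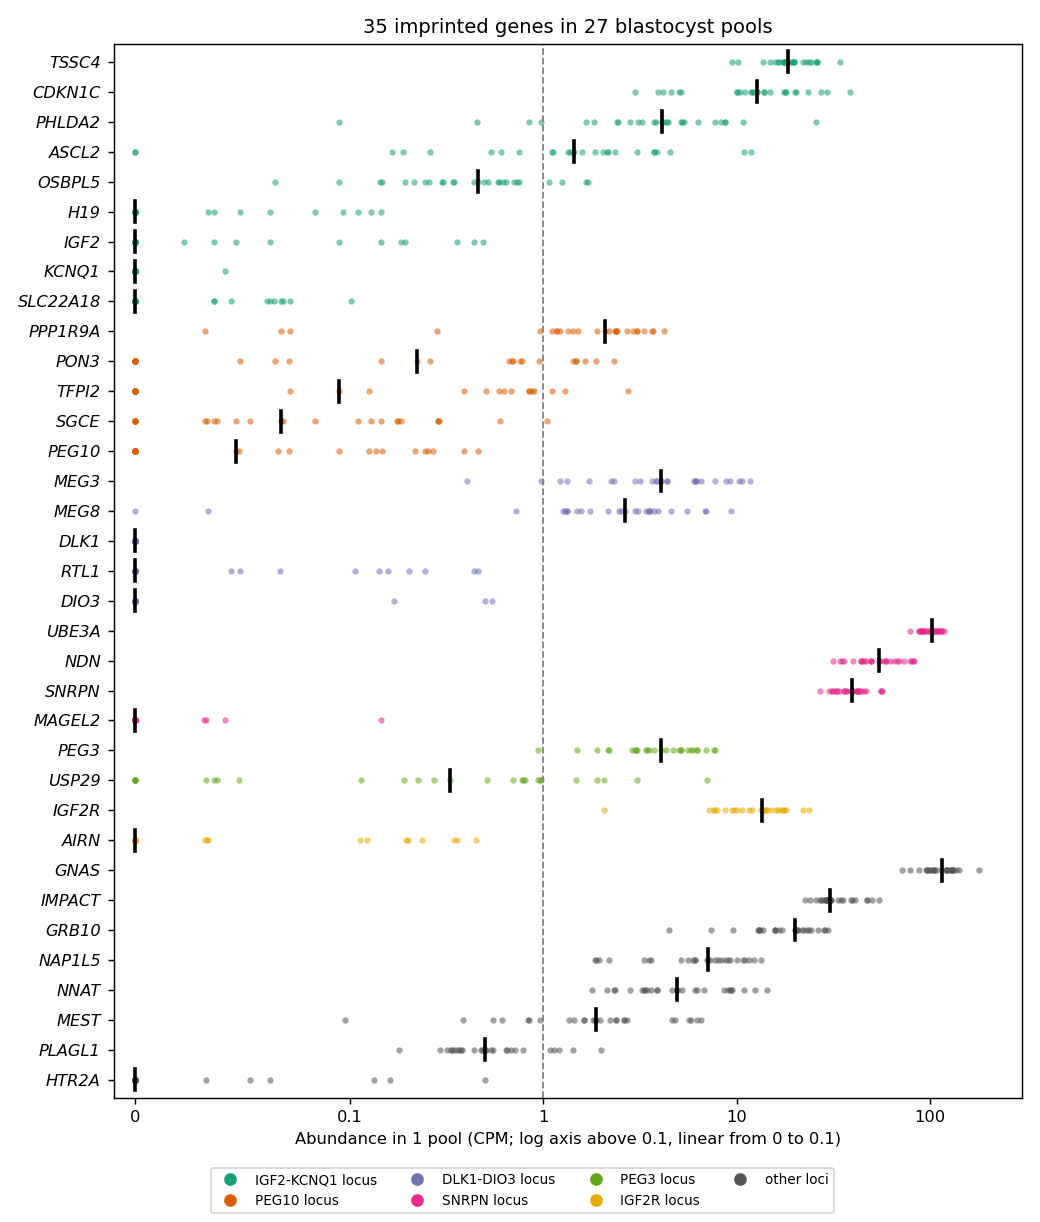
Level of each of the 35 imprinted genes in each of the 27 blastocyst pools, in CPM on an axis that is logarithmic above 0.1 and linear below; each point is 1 pool, black bars are medians, colours mark the locus and the dashed line marks 1 CPM. UBE3A, GNAS, NDN and SNRPN lie far to the right of the line in every pool, whereas H19, IGF2, KCNQ1, SLC22A18, DLK1, RTL1, DIO3, MAGEL2, AIRN and HTR2A had a median of 0 CPM.

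The cluster with the most members was IGF2-KCNQ1 on chromosome 29, of which 4 of 9 genes in the table were retained. Counts of its best known pair were few. H19, a maternally expressed noncoding RNA at chr29:49510998-49513370 (ARS-UCD2.0), had 17 counts in all, spread over 9 pools, and its highest level was 0.144 CPM in pool 45. IGF2, the paternally expressed fetal growth factor at chr29:49395153-49422472, had 37 counts in 11 pools and was highest in pool 1, at 0.490 CPM. Neither reached 1 CPM in any pool. KCNQ1, a potassium channel, had 1 count in pool 5, and SLC22A18, a membrane transporter, had 13 counts in 10 pools and never exceeded 0.101 CPM. OSBPL5, a lipid transfer protein, had counts in all 27 pools with a median of 0.460 CPM and reached 1 CPM in 4 pools, at most 1.70 CPM in pool 35.

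The 4 retained genes of this cluster are all known for expression from the maternal allele, and they differed widely in how evenly the pools expressed them. TSSC4, a protein of spliceosome assembly at chr29:49191068-49194724, had a lowest level of 9.46 CPM in pool 21, a median of 18.4 CPM and a highest level of 34.1 CPM in pool 31. CDKN1C, an inhibitor of the cell cycle at chr29:48728495-48730501, ranged from 2.98 CPM in pool 32 over a median of 12.7 CPM to 38.4 CPM in pool 45. Both genes were thus present in every pool, but the highest pool exceeded the lowest 3.60-fold for TSSC4 and 12.9-fold for CDKN1C.

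PHLDA2 and ASCL2 were the imprinted genes most concentrated in few pools among those retained. PHLDA2, which restrains placental growth and lies at chr29:48689532-48690588, reached 1 CPM in 23 pools with a median of 4.09 CPM. Pool 12 held 25.6 CPM, from 760 counts with a Poisson 95% interval of 23.9 to 27.5 CPM, and the next highest pool, pool 23, held 10.8 CPM. Pool 28 held 1 count, or 0.095 CPM, with an interval of 0.0024 to 0.530 CPM. Pool 12 alone gave 18.8% of the summed level of PHLDA2.

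ASCL2, a transcription factor needed by trophoblast and located at chr29:49311817-49313692, had a median of 1.44 CPM. Its highest levels were 11.8 CPM in pool 31, from 363 counts with an interval of 10.6 to 13.1 CPM, and 10.95 CPM in pool 36. The third highest was pool 9, at 4.54 CPM. Pools 21 and 38 had 0 counts of ASCL2, which in pool 21 allows a level of up to 0.110 CPM at 3 counts. These intervals cover counting error only, since the reads were amplified and not counted as molecules, and the pools lie far outside them. PHLDA2 and SLC22A18 lie 2007 bases apart, and the strand setting of the counting is not given in the sources used here.

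On chromosome 21, 3 of the 4 genes of the SNRPN cluster were retained, each at 26.9 CPM or more in every pool. UBE3A, a ubiquitin ligase known for maternal expression in neurons and located at chr21:2302849-2399277, had a lowest level of 78.6 CPM in pool 24, a median of 102 CPM and a highest level of 118 CPM in pool 15. The highest pool was thus 1.50-fold above the lowest. When the retained genes were divided by median level into deciles of 1231 genes, only 0.812% of the genes in the same decile had a smaller share in their highest pool than UBE3A, which had 4.34%. SNRPN, a core protein of the spliceosome known for paternal expression at chr21:1937668-1961040, ranged from 26.9 CPM in pool 41 over a median of 39.5 CPM to 56.4 CPM in pool 9, a 2.09-fold range.

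NDN, a paternally expressed growth suppressor of the MAGE family at chr21:1252109-1253718, ranged from 31.3 CPM in pool 9 over a median of 54.4 CPM to 82.8 CPM in pool 44. Its neighbour MAGEL2, of the same protein family, had 5 counts in 4 pools. NDN was therefore well expressed in every pool, while MAGEL2 was at or near 0 in all.

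The DLK1-DIO3 cluster, also on chromosome 21, was divided between its noncoding and coding genes. MEG3, a maternally expressed long noncoding RNA at chr21:65727804-65746033, had a lowest level of 0.402 CPM in pool 21, a median of 4.04 CPM and a highest level of 11.7 CPM in pool 31, which was 29.1-fold higher. MEG8, the next noncoding RNA of the cluster at chr21:65781984-65907506, had 0 counts in pool 21, a median of 2.64 CPM and 9.36 CPM in pool 9, where it was highest. MEG3 reached 1 CPM in 25 pools and MEG8 in 24.

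The paternally expressed coding genes of the cluster were not retained. DLK1, a transmembrane protein related to Notch ligands, had 0 counts in every pool, which allows a level of up to 0.00479 CPM at 3 counts over all pools. RTL1, derived from a retrotransposon and needed by the placenta, had 58 counts in 10 pools and at most 0.458 CPM in pool 42. RTL1 overlaps the annotated span of MEG8 by 473 bases, so reads there cannot be told apart without strand. DIO3, which inactivates thyroid hormones, had 44 counts, of which 24 were in pool 23, 15 in pool 22 and 5 in pool 13, with 0 counts in the others. Both retained genes of the cluster are noncoding and both were low in pool 21, and none of the 3 coding genes reached 1 CPM in any pool.

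Of the 5 genes at the PEG10 cluster on chromosome 4, only PPP1R9A was retained. PPP1R9A, an actin-binding scaffold also called neurabin at chr4:12190881-12540227, ranged from 1 count (0.033 CPM) in pool 31 over a median of 2.07 CPM to 4.22 CPM in pool 33. PEG10, a retrotransposon-derived gene required for placental development, had 58 counts in 14 pools and at most 0.460 CPM in pool 26. SGCE, a sarcoglycan whose annotated span ends 266 bases from PEG10, reached 1 CPM in 1 pool, at 1.05 CPM in pool 12. PON3, a lactonase, had a highest level of 2.32 CPM in pool 13 and TFPI2, an inhibitor of serine proteases, of 2.74 CPM in pool 21. PON3 reached 1 CPM in 6 pools and TFPI2 in 3, and each had 0 counts in several others, with counts in 18 and 15 pools.

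The PEG3 and IGF2R loci each gave 1 retained gene. PEG3, a paternally expressed zinc finger protein at chr18:64099192-64122748, was one of the more even genes of low level, from 0.940 CPM in pool 19 over a median of 4.04 CPM to 7.76 CPM in pool 31. Its neighbour USP29, a deubiquitinase, reached 1 CPM in 5 pools and was highest in the same pool, where 214 of its 546 counts gave 6.98 CPM, with 3.06 CPM in pool 41 as the next. IGF2R, the receptor that removes IGF2 and carries lysosomal enzymes, at chr9:96197493-96300019, ranged from 2.07 CPM in pool 9 over a median of 13.5 CPM to 23.7 CPM in pool 33. AIRN, the noncoding RNA that silences IGF2R on the paternal allele in mouse, had 58 counts in 11 pools. The annotated span of AIRN is 892 bases and lies wholly inside IGF2R.

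Of the 8 genes outside these clusters 6 were retained. GNAS, the stimulatory G protein subunit at chr13:57465317-57532620, was the most abundant imprinted gene, with 71.7 CPM in pool 41, a median of 115 CPM and 179 CPM in pool 5. IMPACT, a regulator of the amino acid sensor GCN2 at chr24:32254462-32286370, ranged from 22.6 CPM in pool 31 over a median of 30.2 CPM to 54.6 CPM in pool 21. GRB10, an adaptor that inhibits insulin and IGF receptors, at chr4:5105712-5327049, had 4.47 CPM in pool 9, a median of 20.1 CPM and 29.7 CPM in pool 45. The highest pool was 2.49-fold above the lowest for GNAS, 2.42-fold for IMPACT and 6.64-fold for GRB10.

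The other retained genes of this kind were lower and less even. NAP1L5, of the nucleosome assembly protein family, ranged from 1.86 CPM in pool 31 over a median of 7.10 CPM to 13.3 CPM in pool 12. NNAT, a small membrane protein, ranged from 1.78 CPM in pool 13 over a median of 4.90 CPM to 14.4 CPM in pool 28. MEST, a hydrolase-like protein, had 3 counts (0.098 CPM) in pool 31, a median of 1.87 CPM and 6.51 CPM in pool 1, and it reached 1 CPM in 20 pools. PLAGL1, a zinc finger protein that restrains the cell cycle, had counts in all 27 pools but a median of 0.502 CPM, and reached 1 CPM in 5. HTR2A, a serotonin receptor, had 33 counts, 22 of them in pool 23.

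Evenness was described by 2 measures, the share of a gene's summed CPM held by its highest pool and the ratio of the 75th to the 25th percentile of its CPM over pools, which a single pool cannot set. The highest pool held a median of 6.91% over the 18 retained imprinted genes and 6.47% over all 12310 retained genes. The median ratio of percentiles was 1.84 for imprinted genes and 1.51 for all retained genes. Genes of low level vary more between pools, and the median level of the imprinted genes, 9.88 CPM, was below that of all retained genes, 14.4 CPM. Each gene was therefore also set beside the 1231 genes in its own decile of median level, and 14 of 18 imprinted genes had a ratio above the median of their decile and 4 below it. No test was made of these differences, which describe these pools.

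The 4 genes below the median of their decile were TSSC4 with a ratio of 1.33 beside 1.43, IMPACT with 1.28 beside 1.36, SNRPN with 1.29 beside 1.31 and UBE3A with 1.18 beside 1.26. GNAS was close to its decile, at 1.29 beside 1.26. The farthest above were NNAT, at 2.65 beside 1.87, NDN, at 1.50 beside 1.31, GRB10, at 1.69 beside 1.43, and NAP1L5, at 2.08 beside 1.67. These 4 genes exceeded the ratios of 88.2%, 85.9%, 85.5% and 84.8% of the genes in their deciles. ASCL2 had the largest ratio, 4.01, in a decile whose median was 3.05. CDKN1C, at 1.78 beside 1.53, and PHLDA2, at 2.40 beside 1.87, were also above their deciles in the share of the highest pool, which was smaller in 96.2% and 98.4% of the genes there.

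**Figure D2:**
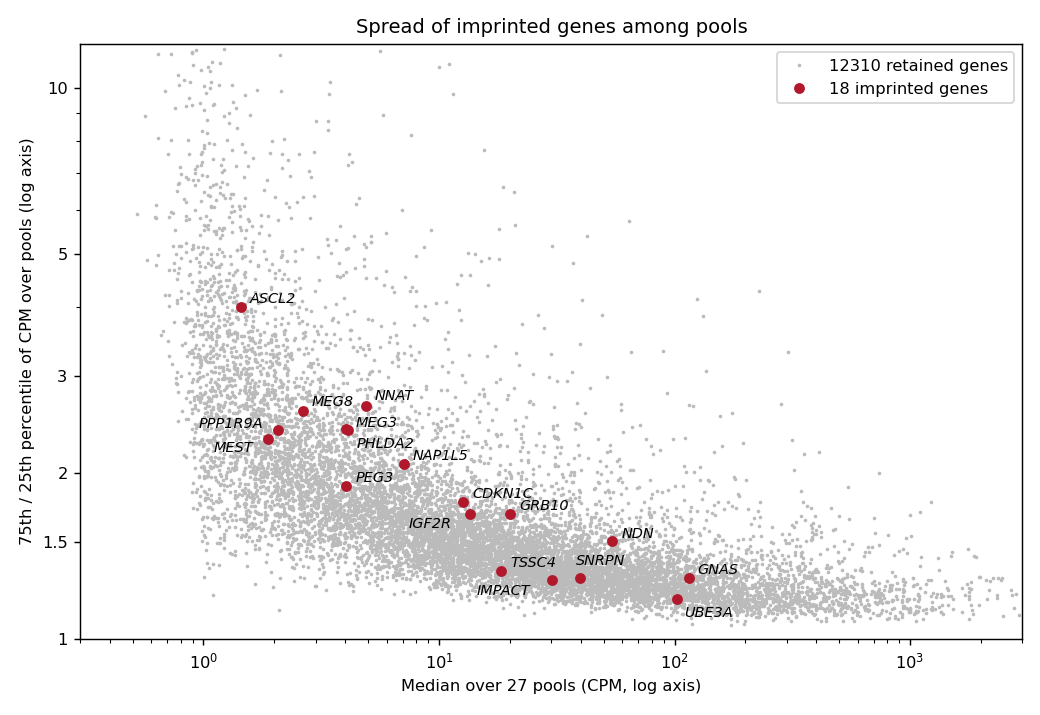
Ratio of the 75th to the 25th percentile of CPM over 27 pools against the median CPM, both on logarithmic axes, for the 18 retained imprinted genes (red) and all 12310 retained genes (grey); ratios beyond the top of the axis are not drawn. UBE3A, IMPACT, TSSC4 and SNRPN sit at or below the middle of the grey band, and NNAT, NDN, GRB10 and NAP1L5 sit in its upper part.

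The extremes were not spread evenly over the pools. Pool 31 was the highest pool for ASCL2, MEG3, PEG3 and TSSC4 and the lowest for MEST, PPP1R9A, NAP1L5 and IMPACT. That was 22.2% of the retained imprinted genes in each direction, beside 9.20% and 17.9% of all retained genes. Pool 21 was the lowest for TSSC4, MEG3, MEG8 and, tied with pool 38 at 0 counts, ASCL2, although it was the lowest for only 4.76% of all retained genes. Pool 9 was the lowest for NDN, IGF2R and GRB10 and the highest for MEG8 and SNRPN. These counts are descriptions of few genes and were not tested.

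**Figure D3:**
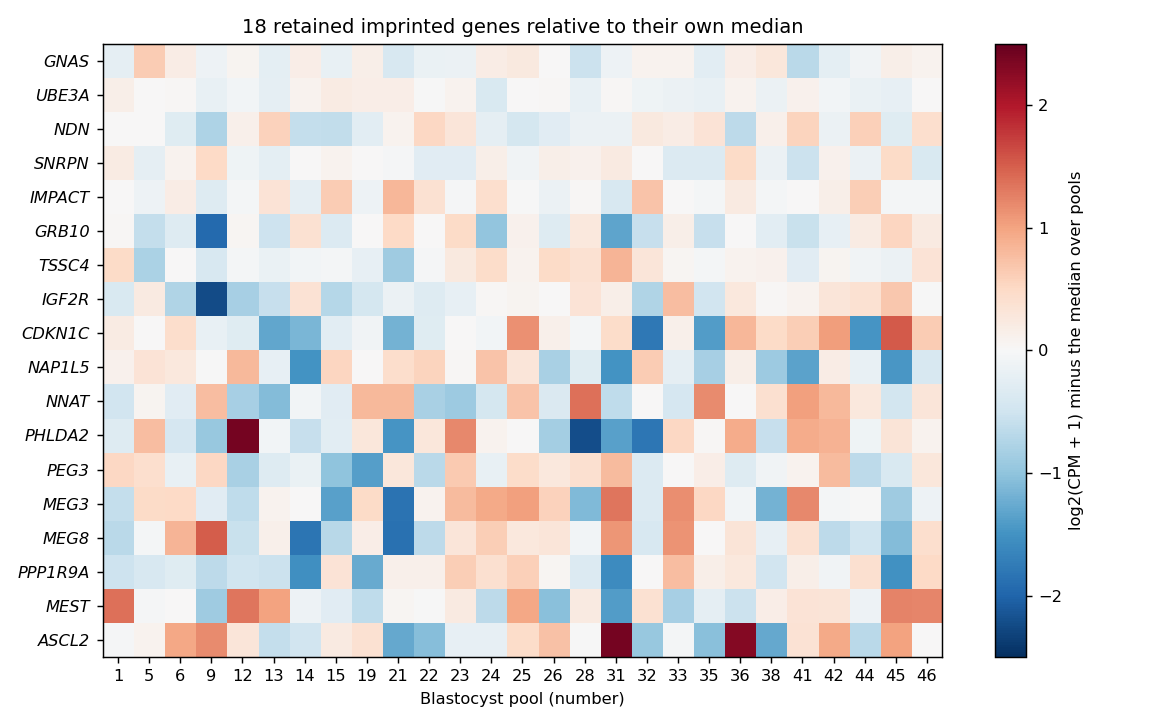
Level of the 18 retained imprinted genes (rows, from the highest median at the top) in each of the 27 pools (columns, pool number), as log2(CPM + 1) minus the median of the gene over pools; red is above and blue below that median. The rows at the top are pale in nearly all pools, and the strongest colours lie in ASCL2 (pools 31 and 36), PHLDA2 (pools 12 and 28), GRB10 and IGF2R (pool 9) and MEG3 and MEG8 (pool 21).

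Because the blastocyst consists of trophectoderm, which forms the placenta, epiblast, which forms the fetus, and hypoblast, which forms the yolk sac, imprinted genes were compared with markers of each lineage over the pools. The score of a lineage was the summed CPM of its listed markers, and edgeR's quasi-likelihood test with Benjamini-Hochberg adjustment over all 12310 retained genes gave each gene a slope, in log2 of its level per doubling of the score, ± SE. The trophectoderm score ranged from 16136 CPM in pool 12 to 41099 CPM in pool 31, and KRT8 and KRT18, keratins of the epithelium, made up 94.0% of it. The epiblast score ranged from 244.7 CPM in pool 31 to 864.7 CPM in pool 32, with POU5F1 at 76.0%, and the hypoblast score from 70.3 CPM in pool 9 to 498.8 CPM in pool 38, with GATA6 at 64.4%. In such bulk pools fewer cells of a lineage and less RNA per cell cannot be told apart. Whether the listed markers were specific to their lineage in these embryos was not tested, so the scores stand for the markers and mainly for these few genes.

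Of the 18 imprinted genes 1 (5.56%) was related to each lineage score. Over the 18 genes the median slope was 0.34 on the trophectoderm score, −0.14 on the epiblast score and 0.066 on the hypoblast score. Over all retained genes these medians were 0.0034, −0.0055 and 0.0092. The medians were not tested and changed with the setting. Over the 34 imprinted genes with any count they were −0.020, −0.073 and −0.088. Without the 2 pools farthest from the median of each score they were 0.20, −0.23 and −0.19 over the 18 genes. With the trophectoderm score the related gene was NDN. It was lower in pools with more of these markers, at −0.70 ± 0.21 and an adjusted p of 0.0352 by edgeR's quasi-likelihood test. For all retained genes 6.77% were related to this score, so the share of imprinted genes was close to the background. NDN was at 59.3 CPM in pool 12, which had the lowest score, and at 49.3 CPM in pool 31, which had the highest. Without these 2 pools, the farthest from the median score, the slope was −1.11 with an adjusted p of 0.0189. With the mean of the standardised markers as the score, chosen after seeing the data, it was −0.23 log2 per unit of that score with an adjusted p of 0.161. The gene called with that score was IGF2R in place of NDN, and it was higher, at 0.52 with an adjusted p of 0.044 in edgeR. With the total count of the pool added to the model the slope of NDN was −0.68 with an adjusted p of 0.0517. PHLDA2 had a steeper slope of −1.88 ± 0.64 that did not pass the test, with an adjusted p of 0.0737 by the same test. PHLDA2 was highest in pool 12, at 25.6 CPM. Without pools 12 and 31 its slope was −0.42 with an adjusted p of 0.895 in edgeR. ASCL2 had the slope largest in size, 2.21 ± 0.86, with an adjusted p of 0.120 in edgeR. Without these 2 pools the ASCL2 slope was 3.20 with an adjusted p of 0.283 in edgeR.

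With the epiblast score, IMPACT was higher in pools with more of these markers, at 0.52 ± 0.15 and an edgeR adjusted p of 0.0436, whereas 3.69% of all retained genes were related to it. IMPACT was at 50.2 CPM in pool 32, which had the highest epiblast score, and at 22.6 CPM in pool 31, which had the lowest. Without these 2 pools the slope was 0.55 but the edgeR adjusted p was 0.404. With the standardised markers the slope was 0.17 with an edgeR adjusted p of 0.819. In these 2 settings, 2 and 0 of the 12310 retained genes were related to the score. ASCL2 had the steepest slope, −2.31 ± 0.74, with an adjusted p of 0.0727 in edgeR. Without pools 31 and 32 the ASCL2 slope was −1.81 ± 1.24, with an adjusted p of 0.722 in edgeR.

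With the hypoblast score, GRB10 was higher in pools with more of these markers, at 0.77 ± 0.20 and an edgeR adjusted p of 0.0265, and 3.93% of all retained genes were related to this score. IGF2R had a like slope of 0.79 ± 0.25 with an adjusted p of 0.0691. Both genes were lowest in pool 9, the pool with the lowest hypoblast score, at 4.47 CPM for GRB10 and 2.07 CPM for IGF2R. In pool 38, with the highest score, GRB10 was at 16.6 CPM, below its median. Without pools 9 and 38 the slope of GRB10 was 0.65 with an edgeR adjusted p of 0.748. With the standardised markers it was 0.37 with an edgeR adjusted p of 0.517. In these 2 settings, 2 and 0 of the 12310 retained genes were related to the score.

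**Figure D4:**
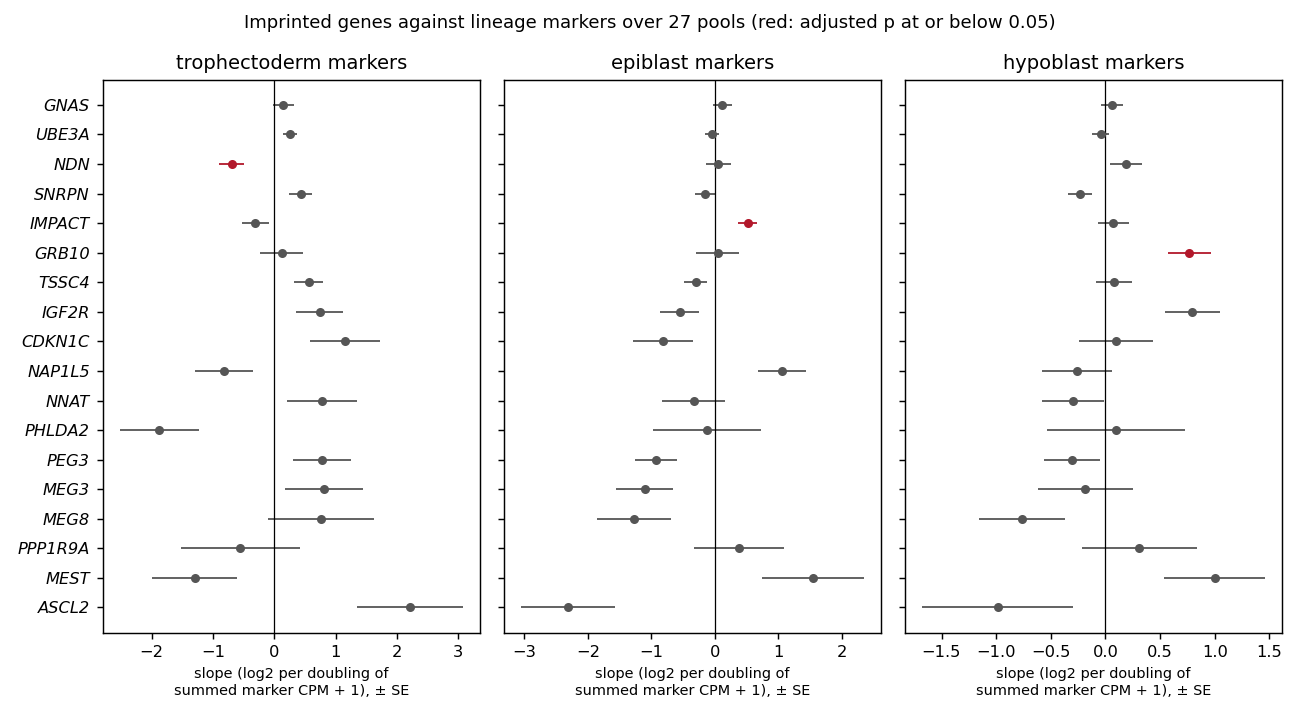
Slope of each of the 18 retained imprinted genes (rows, from the highest median level at the top) on the trophectoderm, epiblast and hypoblast scores over 27 pools, in log2 per doubling of the summed marker CPM + 1; points are slopes and bars are ± SE. The 3 red points mark an adjusted p at or below 0.05 in edgeR (NDN, IMPACT and GRB10), and genes of low level such as ASCL2 have the longest bars.

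None of the 18 imprinted genes was related to the total count of the pool in edgeR. NNAT alone had an unadjusted p at or below 0.05, and DESeq2 also called 0, with NNAT and PHLDA2 at that unadjusted p. For all retained genes, the share related to the total count was likewise 0%, with 340 genes at an unadjusted p at or below 0.05 in edgeR.

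Genes of 1 imprinted cluster can share control regions, so retained genes of the same cluster were compared over the pools, each against the most abundant gene of its cluster. None of the 6 pairs passed the edgeR test, 1 had an unadjusted p at or below 0.05, and DESeq2 gave the same counts. That pair was MEG8 with MEG3, with a slope of 0.82 log2 of MEG8 per doubling of MEG3 CPM + 1, an SE of 0.30 and a 95% interval of 0.24 to 1.40. The edgeR adjusted p was 0.403, and only 0.00812% of the other retained genes were related to MEG3. MEG3 was lowest in pool 21, where MEG8 had 0 counts, and highest in pool 31, where MEG8 was at 6.81 CPM. Pools 9 and 14 lay far from the slope in opposite directions. Pool 9 had the highest level of MEG8 with 3.17 CPM of MEG3, and pool 14 had 1 count of MEG8 (0.034 CPM) with 4.04 CPM of MEG3.

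In the IGF2-KCNQ1 cluster the intervals of the slopes on TSSC4 all held 0. They were −2.43 to 0.73 for PHLDA2, −0.46 to 1.39 for CDKN1C and −0.18 to 2.83 for ASCL2, with adjusted p values of 0.610, 0.635 and 0.354 in edgeR, and 2.77% of the other retained genes were related to TSSC4. On UBE3A, the slope of NDN was −0.36 with an interval of −1.36 to 0.64, and that of SNRPN was −0.03 with an interval of −0.85 to 0.80. UBE3A ranged over only 0.576 on the log2(CPM + 1) scale, and 0% of the other retained genes were related to it in edgeR or DESeq2, with 359 and 426 at an unadjusted p at or below 0.05. The intervals are wide enough that slopes of 0.5 in either direction are not excluded for NDN, SNRPN and PHLDA2.

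**Figure D5:**
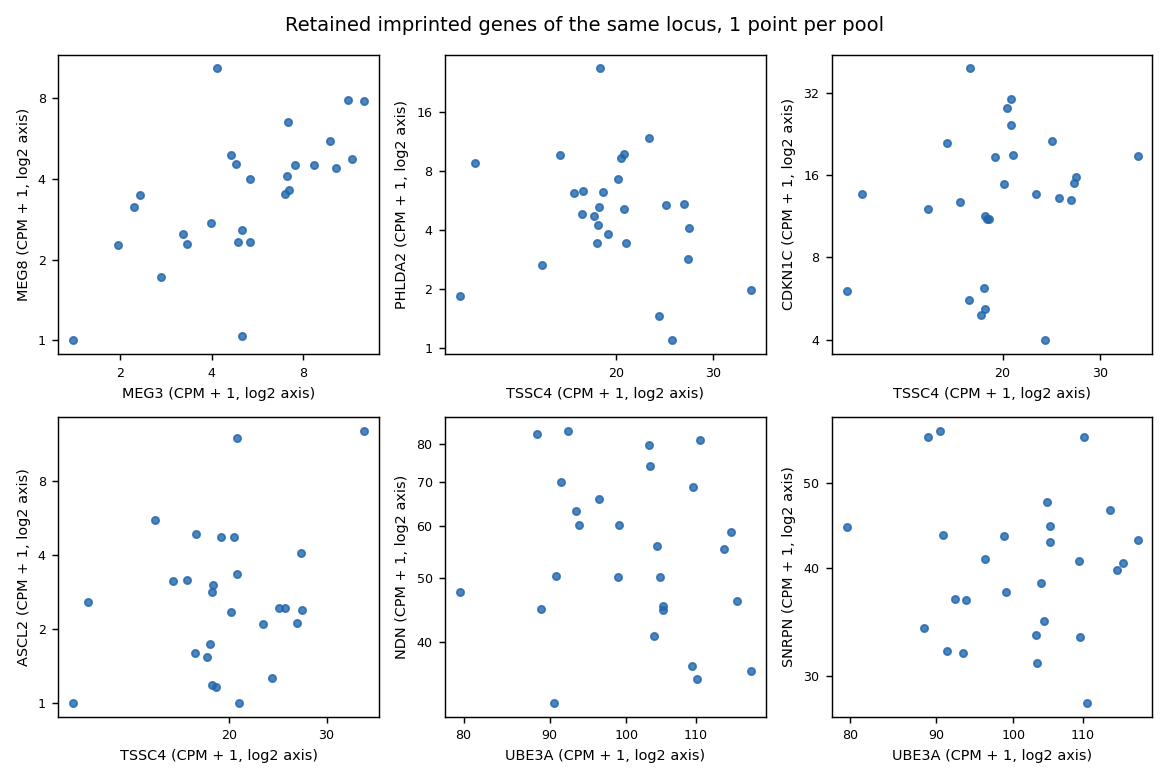
Levels of 2 retained imprinted genes of the same cluster in each of 27 pools, as CPM + 1 on log2 axes; each panel is 1 pair and each point 1 pool. MEG8 is high in most pools with high MEG3, with pool 9 above and pool 14 below the trend, and none of the other 5 pairs had an unadjusted p at or below 0.05.

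Another list held 22 genes with a part in keeping or removing the methylation of imprints. Of these, 21 were in the table and 16 were retained, beside 37.7% of all genes in the table. Of the 16 retained, 12 were at 1 CPM in all pools, beside 72.6% of all retained genes. ZFP57, a zinc finger protein that holds methylation at imprinted control regions, ranged from 15.6 to 43.9 CPM with a median of 30.5 CPM, and TRIM28, its corepressor, had a median of 97.1 CPM. DPPA3, which protects methylation in the zygote, had a median of 280 CPM. DNMT1, which copies methylation at replication, and UHRF1, which recruits it, had medians of 16.2 and 13.9 CPM, while DNMT3A, a methyltransferase that acts on unmethylated DNA, was the highest at 692 CPM. DNMT3L, CTCFL, NLRP5 and PADI6 never reached 1 CPM.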

How the data were processed

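Pools of 2 bovine blastocysts were sequenced as cDNA from the 3' end of transcripts, amplified from total RNA by the SMART-Seq v4 3' DE kit. The authors used fastp for trimming, STAR for alignment of the forward reads to ARS-UCD2.0 and featureCounts for counting per gene, and they deposited raw counts of 32637 genes in 27 pools. Versions, annotation release and strand setting are not given in the sources used here. Amplified reads were not collapsed to molecules, so intervals and floors (3 counts) cover counting error only. No 2 pools had identical counts.

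The labels used here give no treatment or replicate, so no groups were compared, no batch could be examined and p-values measure only the spread among these pools. Counts were divided by column totals, 10517606 to 44253564, to give counts per 1e6 (CPM), and genes at 1 CPM in 12 pools were retained. Positions came from RefSeq for ARS-UCD2.0. No sequences were given here. Slopes on lineage scores, total count or another gene used edgeR's quasi-likelihood test with TMM on retained counts, over 27 pools as a continuous covariate, log2(CPM + 1), with Benjamini-Hochberg adjustment over all retained genes and a threshold of 0.05. The steps were tested on simulated data with 200 planted slopes, each 1 in size, and the same relative spread beyond counting error for every gene. The larger spread of genes such as ASCL2 was not simulated. The fit on UBE3A recovered 0 of the planted slopes and the fit on the trophectoderm score 73. Pairs with UBE3A that passed no test therefore say little, as do genes not called with the trophectoderm score. Alternatives were DESeq2, its size factors, other limits and pseudocounts, the covariate without its 2 farthest pools, and added covariates.

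The imprinted genes, the lists of lineage, leukocyte, cumulus and granulosa, and oocyte markers, of genes that keep imprints and of other imprinted genes were chosen with earlier results of these data known. Every listed imprinted gene was named, retained ones with lowest, median and highest CPM and their evenness, others with counts. Of the other lists, genes at the ends of the range of median level or of known function were named, some after their values were seen. Scores from standardised markers were added after seeing the data. The software was edgeR 4.0.16 and DESeq2 1.42.0 under R 4.3.3, and numpy 2.4.6, pandas 2.3.3 and matplotlib 3.10.9 under Python 3.11.15.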

Additional observations from a re-analysis of the deposited data

How the results depend on the processing

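No paired analysis was possible because the labels used here put no pool in a treatment or replicate. Of the 35 imprinted genes, 11 passed at 1 CPM in all 27 pools and 34 had any count, which follows from the limit itself. The median share of the highest pool was 7.28% with TMM, 7.30% with DESeq2 size factors, 6.01% over the 10 genes with a median of 5 CPM or more and 11.6% over the 34 with any count. It was 7.20% and 7.26% without the pool of lowest and of highest total count, where 1 pool fewer enters the sum, and 6.98% to 7.30% over leaving out each pool. The median ratio of percentiles was 1.97 with TMM, 1.95 with DESeq2 size factors and 1.42 at a median of 5 CPM or more. It was 1.92 over the 22 genes at 0.5 CPM in 12 pools, and 1.75 to 1.85 leaving out each pool. Neither measure was recomputed over all retained genes in these settings, so these values have no matching background. The number of imprinted genes related to the trophectoderm score was 2 over genes with any count (NDN and DIO3), where 1323 of 24638 genes were called. It was 0 with the total count added, where 754 of 12310 genes were called. With standardised markers it was 1, where 930 of 12310 genes were called, and this was IGF2R (higher) and not NDN. For the epiblast score the number was 2 with DESeq2 (IMPACT and ASCL2), where 724 of 12310 genes were called. It was 0 over genes with any count (902 of 24638 genes called) and with the 3 scores in 1 fit (378 of 12310). It was also 0 without the 2 farthest pools, and with standardised markers, where 0 of 12310 genes were called. For the hypoblast score it was 2 with DESeq2 and with the 3 scores in 1 fit (GRB10 and IGF2R both times). All genes called were then 842 and 784 of 12310. It was 0 without the 2 farthest pools, and with standardised markers, where 0 of 12310 genes were called. With the total count it was 1 (DIO3) over genes with any count, where 561 of 24638 genes were called. All genes called fell from 833 to 179 for trophectoderm, from 454 to 2 for epiblast and from 484 to 2 for hypoblast without the 2 farthest pools, which leaves fewer pools and a narrower score. The slopes within clusters that changed sign were never past the threshold: CDKN1C on TSSC4 was −0.033 and NDN on UBE3A 0.17 with the 3 lineage scores added, ASCL2 on TSSC4 was −0.39 without pools 21 and 31, and SNRPN on UBE3A was 0.0095 over genes with any count and 0.062 with the total count added. Except where said, the cause was not tested. At 3 counts of 10517606 to 44253564 the depth cannot show levels below 0.0678 to 0.285 CPM in a pool, which limits what is said of H19, IGF2, DLK1 and the other genes near 0.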

Other observations

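Another list held 26 more genes known to be imprinted in mammals. Of these, 25 were in the table and 13 were retained, beside 37.7% of all genes in the table. Of the 13 retained, 8 were at 1 CPM in all pools, beside 72.6% of all retained genes. CD81, a membrane tetraspanin next to TSSC4 in the IGF2-KCNQ1 region in mouse, was the most abundant, with a lowest level of 144 CPM, a median of 380 CPM and a highest of 762 CPM. DHCR7, an enzyme of cholesterol synthesis, had a median of 80.4 CPM, BLCAP, the gene in whose intron NNAT lies in mammals, 55.6 CPM, INPP5F, an inositol phosphatase, 26.7 CPM, and COPG2, a coatomer subunit next to MEST, 12.9 CPM. KCNK9, SLC38A4, CALCR, BEGAIN, ZIM2 and CCDC40 never reached 1 CPM.

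Several imprinted genes below the limit drew their counts from few pools. DIO3 had all of its 44 counts in 3 pools, HTR2A had 90.9% of 33 counts in its 3 highest pools, RTL1 67.2% of 58 and AIRN 60.3% of 58. USP29 had 59.2% of 546 counts in pools 31, 41 and 1. PLAGL1 and OSBPL5 were low but spread over all 27 pools, with 23.8% of 366 and 25.4% of 331 counts in their 3 highest pools. Among oocyte markers, which were listed to look for maternal RNA left in the blastocysts, 6 of 8 were retained, beside 37.7% of all genes. The summed level of the 8 was 33.4 to 106.3 CPM with a median of 67.5 CPM. That was above the leukocyte median of 36.1 CPM and the cumulus and granulosa median of 42.6 CPM, each a sum over 9 genes. OOEP and ZP3 had the highest medians of the oocyte markers, 30.4 and 19.6 CPM. The other oocyte markers had medians from 0.193 CPM for NLRP5 to 6.10 CPM for ZP2.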
